A study of Homo sapiens with 6 samples.

Results

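Genes for enzymes that write or erase methyl and acetyl marks on histones, or methyl groups on DNA, were described. Some partners that do not themselves write or erase these marks (EED, SUZ12, UHRF1 and SINHCAF) were included. The cells were PANC-1 cells with and without a knockdown of RRM2. The set was taken by symbol from the deposited count table: protein-coding genes named KDM, KMT2, KMT5, HDAC, SIRT or PRMT with a number or letter, and 19 further genes (EZH1, EZH2, EED, SUZ12, SETD1A, SETD1B, SETD2, SETDB1, EHMT1, EHMT2, DOT1L, DNMT1, DNMT3A, DNMT3B, UHRF1, TET1, TET2, TET3 and SINHCAF). This gave 73 genes among the 42902 Gene IDs of the table. PANC-1 is an established human line from a pancreatic ductal carcinoma. The tested cells carried a short hairpin RNA against RRM2 (shRRM2, 3 libraries), the gene of the small subunit of ribonucleotide reductase, and the control cells carried a non-targeting hairpin (shNC, labelled wild type, 3 libraries). The study was set up to find genes downstream of RRM2. The labels name neither the number of hairpins nor separate cultures, so the p-values reflect only how far these libraries vary, and that variation may be technical.

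As background, histone methyltransferases and demethylases add and remove methyl groups on particular lysines or arginines. Methylation of histone H3 at lysine 4 is known from active promoters, that at lysine 27 from Polycomb repression, and that at lysine 9 from heterochromatin. Deacetylases remove acetyl groups, mostly within large corepressor complexes, and DNA methyltransferases set or copy methyl marks on cytosine, which TET enzymes oxidise. Many pancreatic cancers carry mutations in genes of this kind, KMT2C, KMT2D and KDM6A among them.

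Total counts were 17442948 to 19740706 per library in shRRM2 and 16606947 to 23300433 in shNC, and 15866 genes passed edgeR's filter on low counts. The knockdown was present, with RRM2 at 40.2 ± 0.607 CPM (counts relative to the TMM-scaled library size) in shRRM2 and 200 ± 6.38 CPM in shNC (SD, n = 3 each), 20.2% of the control level. No 2 libraries agreed within sampling noise: chi-square divided by its degrees of freedom was 29.8 to 35.7 between groups and 2.22 to 3.90 within them. Of the markers listed for a pancreatic ductal carcinoma line, KRT7, KRT8, KRT18, MUC1 and VIM were abundant. The ductal keratin KRT19 had only 22 counts, EPCAM 53 and CDH1 182 over all 6 libraries. SOX9 was at 11.7 ± 0.710 CPM in shRRM2 and 4.77 ± 0.876 CPM in shNC. Of 9 such markers 8 were tested, and 7 were called higher and 1 lower at the threshold given below. By comparison, 26.0% of all tested genes were called higher and 26.1% lower. Of these 7 calls, EPCAM and CDH1 rest on few counts, and VIM differed by only 0.12 in log2 terms. The summed level of the 9 was 4812 to 4872 CPM in shRRM2 and 3491 to 3663 CPM in shNC. Of 17 markers of fibroblasts, endothelium, immune, acinar and endocrine cells, 6 had 0 counts (KDR, CD3E, PRSS1, CPA1, INS and GCG) and 2 passed the filter. The summed fibroblast markers were at 1.01 to 1.13 CPM in shRRM2 and 0.0607 to 0.40 CPM in shNC, and the endothelial markers at 2.87 to 3.28 CPM in shRRM2 and 1.15 to 1.37 CPM in shNC. The part of other cells in the results was not tested.

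Of the 73 genes, 68 passed the filter. Differences are log2 fold changes of shRRM2 over shNC from edgeR's quasi-likelihood test with standard error (SE) and Benjamini-Hochberg adjustment over all 15866 genes, called at an adjusted p under 0.05. At this threshold 42 of the 68 were called (61.8%), against 52.1% of all tested genes. Of these, 16 rose (23.5%) against 26.0% of all genes, and 26 fell (38.2%) against 26.1%. The median log2 fold change was -0.06 over the 68 and -0.01 over all tested genes. Most changes were small: the median size among the called genes was 0.31, and 11 of the 42 reached 0.5. Of these, 4 rose (DNMT3B, SIRT2, KDM4B and KDM2A), where 12.0% of all genes rose by as much, and 7 fell (SINHCAF, KDM4C, HDAC4, PRMT3, UHRF1, PRMT1 and KDM8), where 7.08% of all genes fell by as much. The CPM of the 3 shRRM2 libraries all lay above those of shNC for 18 of the 68 and all below for 26. Over all tested genes they lay above for 29.2% and below for 28.6%, so that 57.8% did not overlap in either direction. In bulk RNA, fewer cells of a kind and less RNA per cell cannot be told apart.

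**Figure D1:**
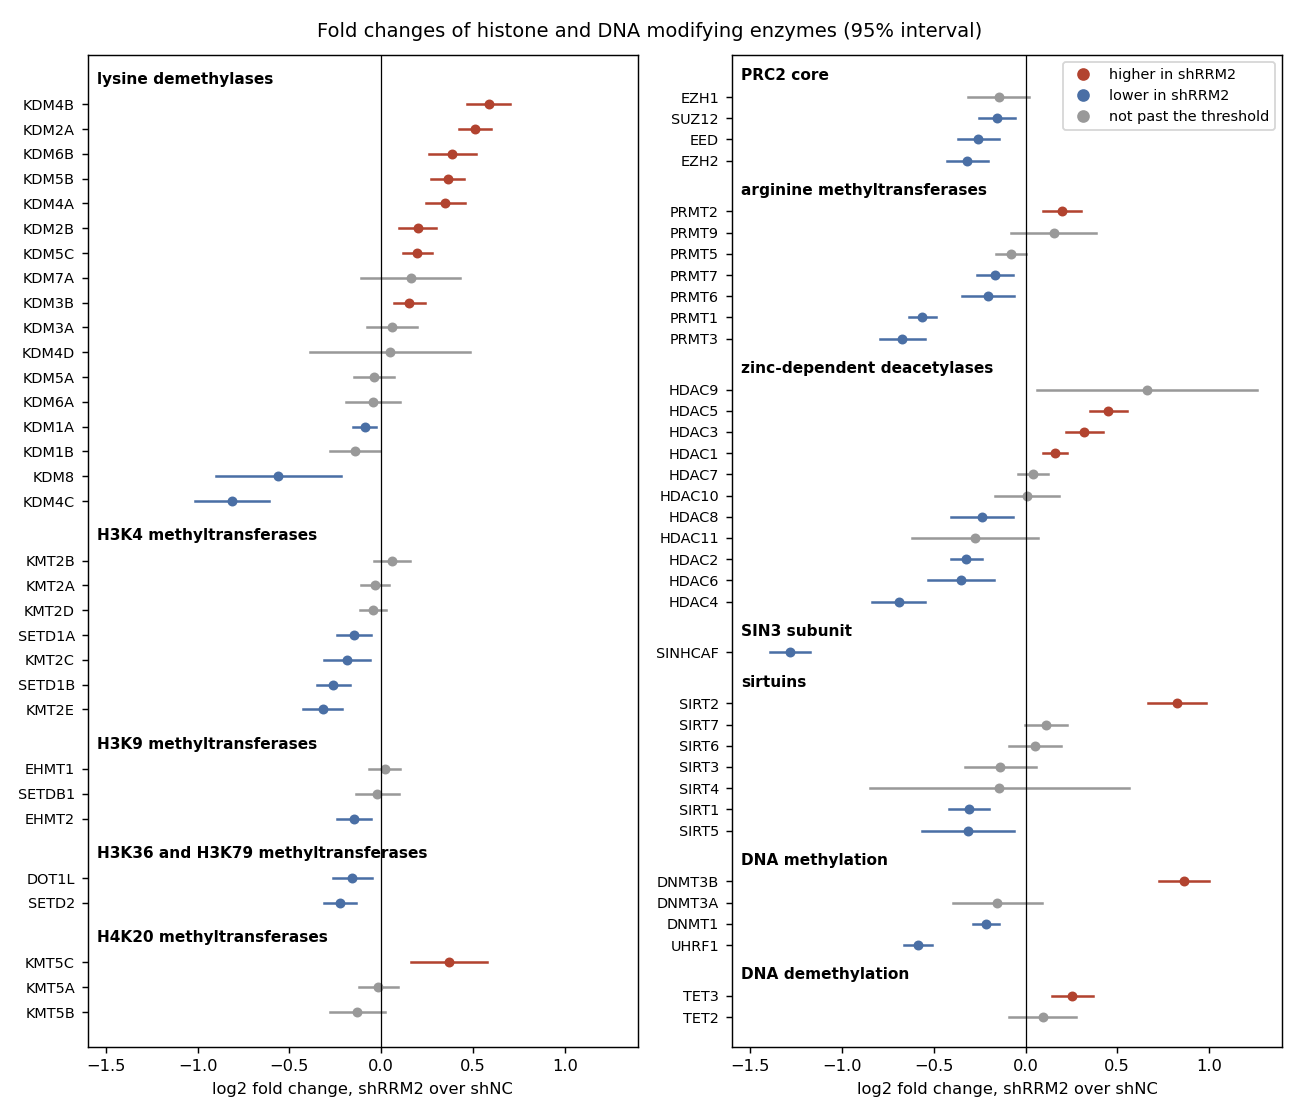
Log2 fold change of shRRM2 over shNC for the 68 tested genes by class, with points for the estimate and lines for the 95% interval. SINHCAF at -1.28 and DNMT3B at 0.86 lie at the ends, and most lysine methyltransferases and all PRC2 core genes lie at or below 0.

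The promoters of the genes with the largest falls are shown because words of the E2F type, the family of factors known for driving genes of the S phase, stood in 4 of these 7. Sequences are from RefSeq (GRCh38.p14), cover 250 bases before to 50 after a gene's start, and were found for 67 of the 72 members looked up (all but SETD1B, DOT1L, SIRT7, HDAC5 and KDM4E). The words searched, on both strands, were TTGGCGC and TTCCCGC, and CACGTG and CCAAT for comparison. The first word of each promoter is in capitals, and on the opposite strand it reads GCGCCAA.
SINHCAF (chr12:31326314-31326394, minus strand): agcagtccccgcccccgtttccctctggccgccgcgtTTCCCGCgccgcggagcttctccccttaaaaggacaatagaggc
HDAC4 (chr2:239401703-239401783, minus strand): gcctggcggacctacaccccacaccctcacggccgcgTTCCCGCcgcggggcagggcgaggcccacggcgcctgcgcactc
PRMT3 (chr11:20387466-20387546, plus strand): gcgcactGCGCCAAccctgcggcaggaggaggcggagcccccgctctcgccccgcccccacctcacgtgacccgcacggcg
UHRF1 (chr19:4909360-4909440, plus strand): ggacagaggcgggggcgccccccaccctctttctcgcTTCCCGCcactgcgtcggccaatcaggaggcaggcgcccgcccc
The word began at position -207 in SINHCAF, -97 in HDAC4 and -243 in PRMT3, counted from the annotated start of the gene. In UHRF1, which has 3 promoters in the table, it began at -104 from an alternative start that lies inside the gene. At least one of both words stood in 9.23% of all 35116 RefSeq promoters. The counts that follow are by gene and not by promoter, and genes of several starts hold several promoters (5 for HDAC4). Either word stood in 9 of 24 members that fell (37.5%) and 1 of 15 that rose (6.67%). It also stood in 5 of 25 members that were not called. Over all tested genes with promoters the share was 17.1%, with 19.7% of those that fell and 16.4% of those that rose. The 9 members that fell were SINHCAF, HDAC4, PRMT3, UHRF1, HDAC6, EZH2, PRMT7, SUZ12 and KDM1A, and the 1 that rose was TET3. The E-box CACGTG, bound by MYC and related factors, stood in 5 of 24 members that fell (20.8%) and 2 of 15 that rose (13.3%). It stood in 5 of 25 members not called, and in 15.0% of all tested genes that fell and 11.3% of those that rose. The box CCAAT, which NF-Y binds, stood in 6 of 24 members that fell (25%) and 10 of 15 that rose (66.7%). It stood in 8 of 25 members not called, and in 42.3% of all tested genes that fell and 43.4% of those that rose. The words were searched with the fold changes known, and a match is a description of letters and not a bound site.

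DNA methylation genes moved in both directions, with the maintenance pair lower and a de novo enzyme higher. UHRF1, which reads hemimethylated DNA and brings in the maintenance enzyme, was at 176, 187 and 172 CPM in shRRM2 libraries 1 to 3 and at 278, 258 and 268 CPM in shNC. The groups did not overlap, and UHRF1 fell by 0.59 in log2 terms (SE 0.0372, adjusted p = 5.75e-15). DNMT1, the maintenance methyltransferase itself, was at 213, 211 and 221 CPM in shRRM2 and at 255.5, 245.2 and 249.3 CPM in shNC. Its fall was smaller, at -0.21 (SE 0.0341, adjusted p = 2.47e-06). DNMT3B (chr20:32762385-32809356), which methylates unmodified sites, was at 62.9, 61.9 and 58.3 CPM in shRRM2 and at 29.7, 33.9 and 37.1 CPM in shNC. Every shRRM2 library was above every shNC library, and DNMT3B rose by 0.86 (95% interval 0.73 to 1.00, adjusted p = 5.77e-13), the highest called value in the set. DNMT3A, its close relative, averaged 11.5 ± 1.41 CPM in shRRM2 and 12.7 ± 1.43 CPM in shNC (adjusted p = 0.29), with overlapping groups.

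Of the TET enzymes, which oxidise 5-methylcytosine, TET3 was at 76.3, 66.9 and 72.2 CPM in shRRM2 and at 59.2, 62.0 and 58.9 CPM in shNC and rose by 0.25 (adjusted p = 0.000169). TET2 was at 0.09 with an interval of -0.09 to 0.28. TET1 was below the filter, with 5, 10 and 6 counts in shRRM2 and 5, 1 and 4 in shNC. Among 14 genes that work with these enzymes 4 rose (28.6%) and 8 fell (57.1%), against 26.0% and 26.1% of all tested genes. The thymine glycosylase TDG, which excises oxidised methylcytosine, was lower at -0.60 (40.6 ± 0.805 CPM in shRRM2 and 61.5 ± 0.863 CPM in shNC). TRDMT1, a relative of the DNA methyltransferases known for methylating transfer RNA, was lower at -1.29. DNMT3L, a cofactor of the de novo enzymes, was higher at 2.04, with 15, 13 and 40 counts in shRRM2 and 2, 12 and 3 in shNC. IDH2, a mitochondrial source of the TET cosubstrate, was higher at 0.50.

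Copying of DNA methylation goes with replication, so genes of dividing cells are given beside these values. Of 12 tested, 2 rose (16.7%) and 9 fell (75%), against 26.0% and 26.1% of all tested genes. The median over the 12 was -0.15. Their summed level was 2285 to 2301 CPM in shRRM2 and 2518 to 2640 CPM in shNC, with none at 0. MCM3, MCM6, PCNA and MCM5, which act at the replication fork, were lower at -0.39, -0.38, -0.35 and -0.31. These were named for the size of their called changes. The part of genes of dividing cells in the falls of UHRF1, DNMT1 and EZH2 was not tested.

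**Figure D2:**
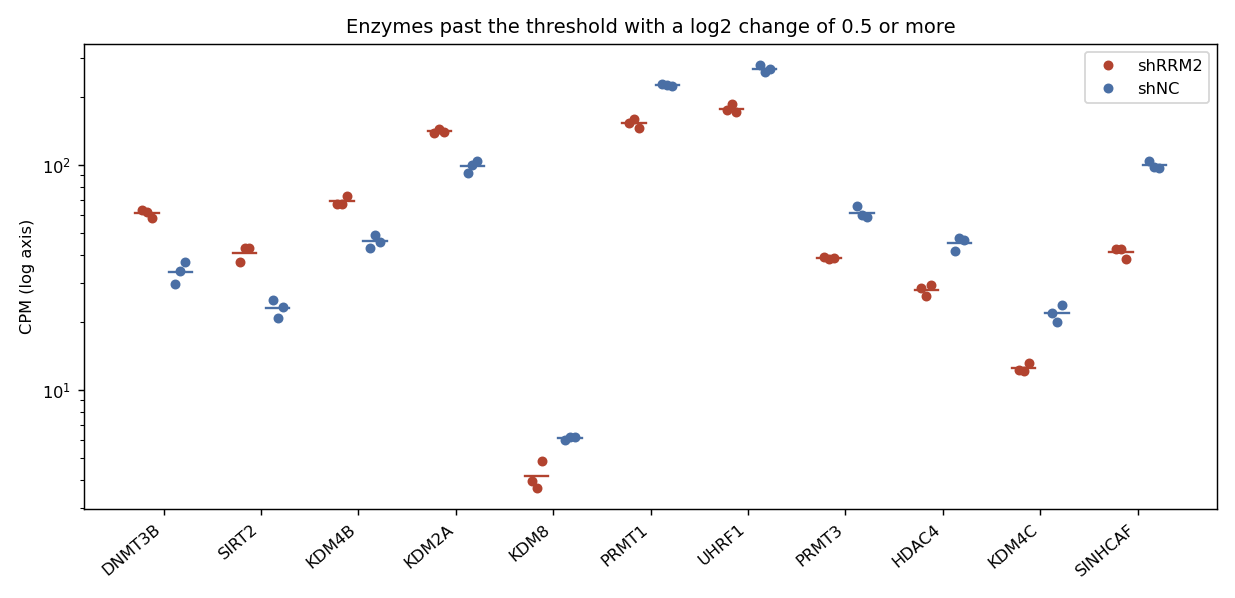
CPM on a log axis in each library (points) and group mean (lines) for the 11 genes past the threshold with a log2 change of at least 0.5, shRRM2 left of shNC. The groups do not overlap for any of the 11, which were selected on these same values. Of all tested genes, 57.8% did not overlap.

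Lysine demethylases were more often higher than lower. Of 20 genes 17 were tested, and 8 rose (47.1%) and 3 fell (17.6%), against 26.0% and 26.1% of all tested genes. Their median was 0.15. KDM4B and KDM4A, jumonji enzymes that demethylate H3 lysines 9 and 36, both rose. KDM4B was at 67.1, 67.1 and 72.5 CPM in shRRM2 and at 43.0, 48.8 and 45.6 CPM in shNC, a rise of 0.59 (SE 0.0577, adjusted p = 2.03e-10). KDM4A rose by 0.35 (69.6 ± 0.381 CPM in shRRM2 and 54.6 ± 1.25 CPM in shNC). In the GENCODE annotation, 55.2% of its exon bases also lie in exons of other genes. Whether the annotation used for counting held these genes is not given, so its counts are less certain. Another relative with this activity went the other way. KDM4C was at 12.3, 12.1 and 13.2 CPM in shRRM2 and at 22.1, 20.2 and 24.0 CPM in shNC, so that no library of one group reached the other. It fell by 0.81 (SE 0.0982, adjusted p = 1.59e-08), to 56.9% of the shNC level.

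KDM2A, which removes methyl groups from H3 lysine 36 at CpG islands, was at 139, 145 and 140 CPM in shRRM2 and at 92.3, 100.5 and 104.5 CPM in shNC. It rose by 0.51 (SE 0.0437, adjusted p = 7.45e-12), and its relative KDM2B, also a subunit of a variant Polycomb complex, rose by 0.20. KDM6B, which removes the Polycomb mark at H3 lysine 27, rose by 0.39 (56.7 ± 2.14 CPM in shRRM2 and 43.2 ± 3.86 CPM in shNC). Its X-linked relative KDM6A was at -0.04 with an interval of -0.19 to 0.10. The H3 lysine 4 demethylases KDM5B and KDM5C rose by 0.36 and 0.20, while KDM5A was at -0.04 (interval -0.15 to 0.07). The H3 lysine 9 demethylase KDM3B rose by 0.15, and KDM3A was at 0.06 (adjusted p = 0.473). KDM7A was at 0.16 (adjusted p = 0.325) although its groups did not overlap.

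KDM8, a jumonji protein whose activity on histones is disputed, was at 3.96, 3.68 and 4.86 CPM in shRRM2 and at 6.0, 6.20 and 6.20 CPM in shNC. It fell by 0.56 (SE 0.168, adjusted p = 0.00547), on few counts. KDM1A, the flavin-dependent enzyme of CoREST, was at 362 ± 7.30 CPM in shRRM2 and 385 ± 4.29 CPM in shNC and fell by 0.09 (adjusted p = 0.0147). The call of KDM1A ended without shRRM2 replicate 2 or 3 (-0.07 and -0.08, adjusted p = 0.0537 and 0.0744) and with unscaled library sizes (-0.05, adjusted p = 0.144). KDM1B was at -0.14 (adjusted p = 0.078) and passed without shRRM2 replicate 1 (-0.22, adjusted p = 0.0124). KDM4D was at 0.05 with an interval of -0.39 to 0.49. KDM4E and KDM4F had 0 counts in every library, and near-identical copies of the KDM4D type could share reads. No level is given for KDM5D, on chromosome Y, which did not pass the filter. In a separate list of 9 tested jumonji proteins, 1 rose (11.1%) and 3 fell (33.3%), against 26.0% and 26.1% of all tested genes. JMJD1C was higher at 0.21, and RIOX2, PHF8 and HR were lower at -0.31, -0.23 and -0.14.

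Lysine methyltransferases were more often lower than higher. Of 17 genes in these families 1 rose, 8 fell and 8 were not called, with values between -0.32 and 0.37. The 17 include EZH1 and EZH2, which are counted again below among the Polycomb genes. Over all tested genes 26.0% rose and 26.1% fell. The calls of SETD1A, KMT2C, DOT1L and EHMT2 did not hold in every alternative. Of the 7 that act on H3 lysine 4 or are close relatives, 4 fell (57.1%) and 3 were not called. KMT2E, a relative without clear catalytic activity, was at 56.9, 55.2 and 57.45 CPM in shRRM2 and at 67.3, 70.4 and 73.9 CPM in shNC and fell by 0.32 (SE 0.0527, adjusted p = 4.76e-06). SETD1B and SETD1A, which carry out much of the promoter methylation at H3 lysine 4, fell by 0.26 and 0.15. SETD1A did not pass without shRRM2 replicate 2 (-0.10, adjusted p = 0.083). KMT2A, KMT2B and KMT2D were at -0.04, 0.06 and -0.04, with intervals inside -0.12 to 0.16. In GENCODE, 22.6% of the exon bases of KMT2A also lie in exons of other genes.

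KMT2C, an enhancer enzyme often mutated in tumours, was lower at -0.19 (adjusted p = 0.0114), but its groups overlapped. It did not pass without shRRM2 replicate 1 or 3 (-0.14 and -0.15, adjusted p = 0.0943 and 0.0718) or without shNC replicate 2 or 3 (-0.17 and -0.16, adjusted p = 0.0577 and 0.0571). Of 12 tested genes for shared subunits and partners of these enzymes, the COMPASS complexes, 2 rose (16.7%) and 9 fell (75%). The shares over all tested genes were 26.0% and 26.1%. PSIP1, a chromatin reader that tethers menin, was lower at -0.50 (57.7 ± 3.81 CPM in shRRM2 and 82.0 ± 7.64 CPM in shNC), PAXIP1 at -0.46 and NCOA6 at -0.37, while the core subunit ASH2L was higher at 0.39.

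Enzymes for other lysines moved in both directions. SETD2, the H3 lysine 36 trimethylase, fell by 0.22 (112 ± 2.69 CPM in shRRM2 and 131 ± 6.19 CPM in shNC, adjusted p = 3.12e-05). DOT1L, which methylates H3 lysine 79, was lower at -0.16 (adjusted p = 0.0106). It did not pass without shRRM2 replicate 2 or shNC replicate 2 (-0.12 and -0.10, adjusted p = 0.0611 and 0.134) or with unscaled library sizes (adjusted p = 0.0548). Of the H3 lysine 9 enzymes, EHMT2 was lower at -0.15 and did not pass without shRRM2 replicate 2 (-0.09, adjusted p = 0.111). Its partner EHMT1 was at 0.02 (interval -0.06 to 0.10) and SETDB1 at -0.02 (interval -0.14 to 0.10). KMT5C, the trimethylase of H4 lysine 20, was at 19.8, 17.6 and 16.8 CPM in shRRM2 and at 14.9, 14.3 and 12.6 CPM in shNC. It rose by 0.37 (adjusted p = 0.00266), the only lysine methyltransferase of the set called higher by edgeR, while KMT5A and KMT5B were at -0.02 and -0.13 (adjusted p = 0.824 and 0.143). KMT5B passed without shNC replicate 2 (-0.21, adjusted p = 0.0367).

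Of 18 further lysine methyltransferases 1 rose (5.56%, SETD7 at 0.15) and 10 fell (55.6%), against 26.0% and 26.1% of all tested genes. Among those that fell were SMYD3 at -0.75, SMYD2 at -0.41, NSD1 at -0.40 and SETD3 at -0.36. Of 9 readers of H3 lysine 9 or H4 lysine 20 methylation 1 rose (11.1%) and 6 fell (66.7%). The heterochromatin proteins CBX5 and CBX3 differed in direction, CBX5 higher at 0.38 and CBX3 lower at -0.56, with L3MBTL1 at -0.75, ATF7IP, a partner of SETDB1, at -0.54 and ATRX at -0.48.

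The core of Polycomb repressive complex 2, which methylates H3 lysine 27, had 3 of 4 genes called lower (75%, against 26.1% of all tested genes). EZH2, the catalytic subunit of dividing cells, was at 66.1, 63.3 and 70.5 CPM in shRRM2 and at 85.7, 76.4 and 87.3 CPM in shNC. It fell by 0.32 (SE 0.0544, adjusted p = 9.07e-06), to 80.3% of the shNC level. The scaffold subunits EED and SUZ12 fell by 0.26 and 0.16 (adjusted p = 0.000177 and 0.00607). SUZ12 did not pass without shRRM2 replicate 3 or shNC replicate 1 (-0.11 each, adjusted p = 0.0703 and 0.0734). EZH1, the alternative catalytic subunit, averaged 24.1 ± 2.27 CPM in shRRM2 and 26.6 ± 0.707 CPM in shNC (adjusted p = 0.135) and passed without shRRM2 replicate 1 (-0.22, adjusted p = 0.0418). Of 9 tested accessory proteins 2 rose (22.2%, LCOR at 0.26 and PHF1 at 0.24) and 1 fell (11.1%, AEBP2 at -0.33). Of 18 subunits of Polycomb complex 1, which ubiquitinates histone H2A, 4 rose and 4 fell (22.2% each). PCGF1 at -0.40 and PCGF6 at 0.29 were among them. Over all tested genes 26.0% rose and 26.1% fell.

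Arginine methyltransferases were more often lower than higher. Of 8 genes 7 were tested, 1 rose (14.3%) and 4 fell (57.1%), against 26.0% and 26.1% of all tested genes. PRMT1, the enzyme behind most asymmetric arginine dimethylation, was at 154, 161 and 146 CPM in shRRM2 and at 229, 227 and 224 CPM in shNC. The gap between the groups was wide against the spread within them, and PRMT1 fell by 0.56 (SE 0.0372, adjusted p = 1.53e-14). PRMT3, which methylates a protein of the small ribosomal subunit, was at 38.9, 38.2 and 38.6 CPM in shRRM2 and at 66.05, 59.8 and 58.5 CPM in shNC. It fell by 0.67 (SE 0.0597, adjusted p = 2.00e-11), to 62.8% of the shNC level.

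PRMT6 and PRMT7 fell by 0.20 and 0.17 (adjusted p = 0.0149 and 0.00389). PRMT6 did not pass without shRRM2 replicate 1 or 3 (-0.16 each, adjusted p = 0.0916 and 0.0834) or shNC replicate 2 (adjusted p = 0.0528), and PRMT7 did not without shNC replicate 2 (-0.12, adjusted p = 0.0547). PRMT2 rose by 0.20 (72.7 ± 3.41 CPM in shRRM2 and 63.3 ± 0.427 CPM in shNC). PRMT5, the main symmetric dimethylase, was at 119 ± 3.06 CPM in shRRM2 and 126 ± 3.18 CPM in shNC (-0.08, adjusted p = 0.0909), and passed without shNC replicate 3 (-0.10, adjusted p = 0.0485). An antisense gene covers 34.8% of its exon bases in GENCODE. PRMT9 was at 0.15 (adjusted p = 0.266), and PRMT8, a brain enzyme, had 0 counts. Of 8 partners and relatives 2 rose (25%) and 3 fell (37.5%), against 26.0% and 26.1% of all tested genes. BTG1 and BTG2, antiproliferative proteins that bind PRMT1, were higher at 0.72 and 0.68. NDUFAF7, CLNS1A and WDR77 were lower at -0.30, -0.24 and -0.10.

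Zinc-dependent deacetylases held both directions within classes I and IIa. Of 11 tested 3 rose (27.3%) and 4 fell (36.4%), against 26.0% and 26.1% of all tested genes. In class I, the nuclear enzymes of corepressor complexes, HDAC1 was at 286.8, 289.5 and 280.2 CPM in shRRM2 and at 258.1, 254.5 and 253.5 CPM in shNC, and rose by 0.16 (SE 0.0323, adjusted p = 7.98e-05). HDAC3, the deacetylase of the NCOR complexes, rose by 0.32 (78.5 ± 1.18 CPM in shRRM2 and 62.9 ± 2.07 CPM in shNC). HDAC2, which shares its complexes with HDAC1, was at 134.7, 137.5 and 128.4 CPM in shRRM2 and at 175.5, 155.6 and 170.7 CPM in shNC and fell by 0.32 (SE 0.0422, adjusted p = 7.96e-08). HDAC8 was lower at -0.24 (adjusted p = 0.016) and did not pass without shRRM2 replicate 2 or shNC replicate 1 or 2 (adjusted p = 0.118, 0.0612 and 0.0587).

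In class IIa, whose members shuttle between nucleus and cytoplasm, HDAC4 was at 28.4, 26.1 and 29.3 CPM in shRRM2 and at 41.4, 47.2 and 46.3 CPM in shNC. It fell by 0.69 (SE 0.0708, adjusted p = 4.90e-10), to 62.0% of the shNC level. HDAC5 was at 83.3, 85.9 and 78.8 CPM in shRRM2 and at 61.65, 60.25 and 59.65 CPM in shNC and rose by 0.45 (SE 0.0502, adjusted p = 2.99e-09). HDAC7 was at 0.04 (interval -0.04 to 0.13). HDAC9 had 39, 41 and 42 counts in shRRM2 and 19, 26 and 33 in shNC, a log2 value of 0.66 (adjusted p = 0.0591). It passed without shNC replicate 3 (0.98, adjusted p = 0.0142), with limma-voom (adjusted p = 0.0433), with a filter of 1 CPM in 3 libraries (adjusted p = 0.0484) and with unscaled library sizes (adjusted p = 0.0471). The tubulin deacetylase HDAC6 fell by 0.35 (adjusted p = 0.0011), and HDAC10 and HDAC11 were at 0.01 and -0.28 (adjusted p = 0.946 and 0.174). HDAC11 passed without shRRM2 replicate 2 (-0.45, adjusted p = 0.0404).

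The largest change in the set was in SINHCAF (chr12:31280584-31326150), a subunit of the SIN3-HDAC corepressor also known as FAM60A. Its counts were 751, 842 and 690 in shRRM2 and 1823, 2249 and 1605 in shNC, or 42.5, 42.4 and 38.1 CPM in shRRM2 and 104, 97.6 and 97.5 CPM in shNC. The groups were far apart, and SINHCAF fell by 1.28 (95% interval -1.39 to -1.17, adjusted p = 1.11e-19), to 41.1% of the shNC level. Of 14 tested SIN3 subunits 5 rose (35.7%) and 2 fell (14.3%), against 26.0% and 26.1% of all tested genes. ARID4A was at 0.42, SIN3B at 0.32, BRMS1L at -0.37 and SIN3A at -0.29.

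Among other corepressors, NuRD and CoREST held both rises and falls, while the listed genes of the NCOR complex held falls but no rises. Among all tested genes 26.0% rose and 26.1% fell. Of 11 genes of NuRD, a complex of remodelling and deacetylation, 6 rose (54.5%) and 4 fell (36.4%). Its helicases CHD5, at 6.56 ± 0.641 CPM in shRRM2 and 2.84 ± 0.474 CPM in shNC, and CHD3 were higher at 1.21 and 0.35, and MBD3 and MTA1 were lower at -0.53 and -0.30. Of 11 genes of CoREST 4 rose (36.4%) and 3 fell (27.3%), with RCOR2 at -0.77, HMG20B at -0.44 and ZNF217 at 0.38. Of 5 genes of the NCOR complex 4 fell (80%), while their deacetylase HDAC3 rose. GPS2 was at -0.38, TBL1X and TBL1XR1 at -0.33 each and NCOR1 at -0.27.

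Sirtuins, the NAD-dependent deacylases, held 1 rise (14.3%) and 2 falls (28.6%) among 7 tested, against 26.0% and 26.1% of all tested genes. SIRT2, a mostly cytoplasmic deacetylase of tubulin and of H4 lysine 16 in mitosis, was at 37.1, 42.8 and 42.6 CPM in shRRM2 and at 25.1, 20.9 and 23.5 CPM in shNC. The groups were well apart, and SIRT2 rose by 0.83 (95% interval 0.67 to 0.99, adjusted p = 9.16e-11). SIRT1, the nuclear deacetylase that acts on histones and p53, was at 58.8, 57.2 and 64.2 CPM in shRRM2 and at 73.65, 72.7 and 76.9 CPM in shNC and fell by 0.31 (SE 0.0531, adjusted p = 8.96e-06).

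The mitochondrial SIRT5 was lower at -0.31 (adjusted p = 0.032), but DESeq2 did not call it (adjusted p = 0.0647), nor did edgeR with unscaled library sizes (adjusted p = 0.0599), without shRRM2 replicate 3 (adjusted p = 0.18), or without shNC replicate 2 or 3 (adjusted p = 0.086 and 0.0884). SIRT3, SIRT4, SIRT6 and SIRT7 were at -0.14, -0.14, 0.05 and 0.11 and did not pass. SIRT7 passed with unscaled library sizes (adjusted p = 0.0301) and without shNC replicate 2 (0.16, adjusted p = 0.0393). Among 13 acetyltransferases, the enzymes that deacetylases oppose, 2 rose (15.4%) and 3 fell (23.1%), against 26.0% and 26.1% of all tested genes. KAT8 was at -0.64 (16.3 ± 0.506 CPM in shRRM2 and 25.5 ± 1.57 CPM in shNC), KAT5 at -0.48, KAT2B at -0.31 and KAT7 at 0.19. Of 11 readers of acetylated lysine 3 rose (27.3%) and 5 fell (45.5%), with BRPF3 at 0.44, BRD2 at -0.29, BRD8 at 0.23 and BRD7 at -0.21.

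**Figure D3:**
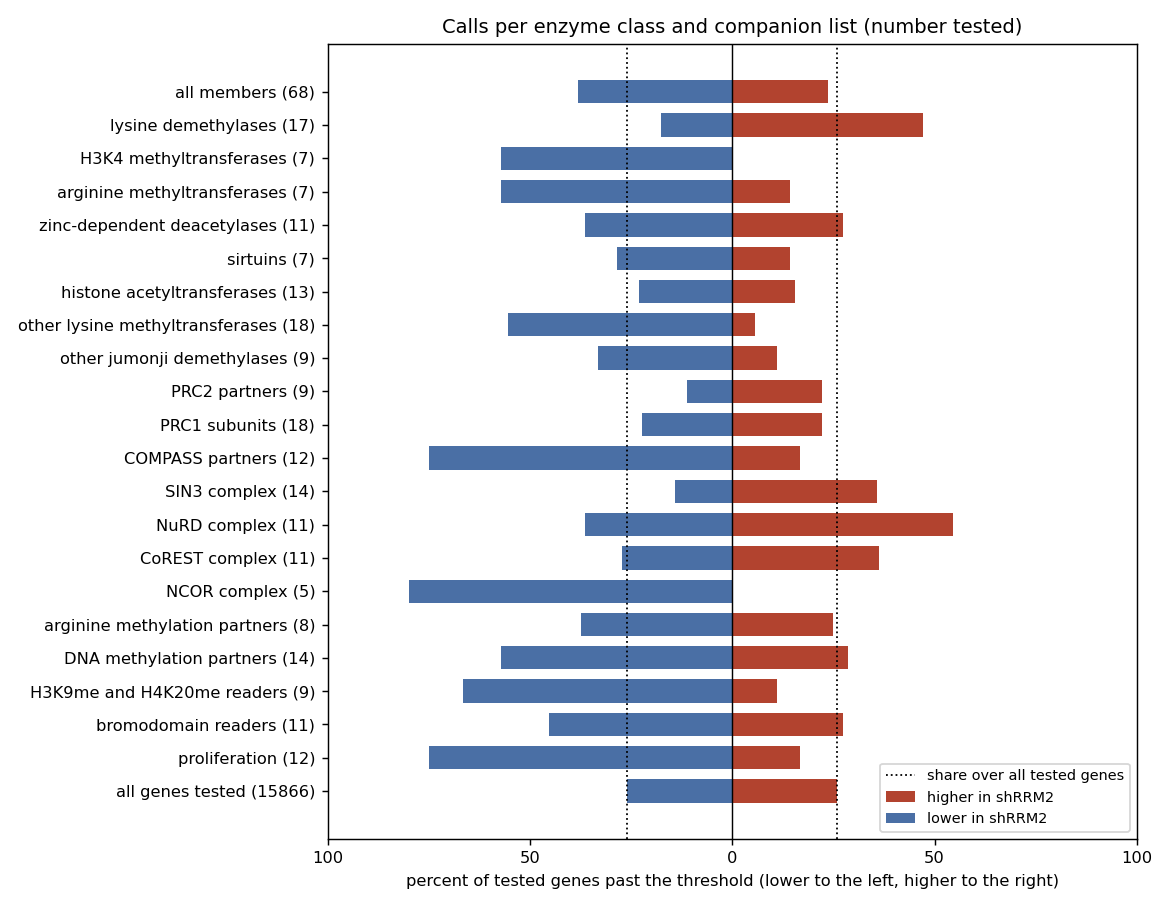
Percent of tested genes called lower (left) and higher (right) in shRRM2, for all members, for enzyme classes of at least 7 tested genes and for companion lists, with the number tested in brackets and dotted lines at the shares over all tested genes. NuRD at 54.5% and lysine demethylases at 47.1% reach furthest to the right. The NCOR complex at 80%, and COMPASS partners and genes of dividing cells (proliferation) at 75% each, reach furthest to the left. Several other lists also pass the dotted lines, among them CoREST and SIN3 on the right. On the left these include H3K4 methyltransferases, arginine methyltransferases and the readers of H3 lysine 9 or H4 lysine 20 methylation.

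Ratios between relatives were taken within each library, where library scaling cancels. The 7 pairs were chosen after their values were seen. The DNMT3B to DNMT1 count ratio was 0.295, 0.293 and 0.263 in shRRM2 and 0.116, 0.138 and 0.149 in shNC, 2.12-fold higher. The KDM4B to KDM4C ratio was 5.44, 5.53 and 5.52 in shRRM2 and 1.94, 2.42 and 1.90 in shNC, 2.65-fold higher. In both pairs every shRRM2 library was above every shNC library. The SIRT2 to SIRT1 ratio averaged 0.681 ± 0.0604 in shRRM2 and 0.311 ± 0.0277 in shNC (SD, n = 3 each).

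The HDAC4 to HDAC5 ratio was 0.341, 0.303 and 0.372 in shRRM2 and 0.672, 0.783 and 0.777 in shNC. The HDAC2 to HDAC1 ratio averaged 0.468 ± 0.00854 in shRRM2 and 0.655 ± 0.0378 in shNC, and the PRMT1 to PRMT5 ratio 1.29 ± 0.0832 in shRRM2 and 1.80 ± 0.0292 in shNC. In these 6 pairs the groups did not overlap. The two-sided exact permutation test gave p = 0.1, the smallest that 3 libraries against 3 allow (0.117 after Benjamini-Hochberg adjustment over the 7). The adjustment does not cover the choice of the pairs with their values known, so these p-values decide nothing. The EZH1 to EZH2 ratio overlapped, at 0.362 ± 0.0382 in shRRM2 and 0.321 ± 0.0259 in shNC (exact permutation p = 0.2).

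**Figure D4:**
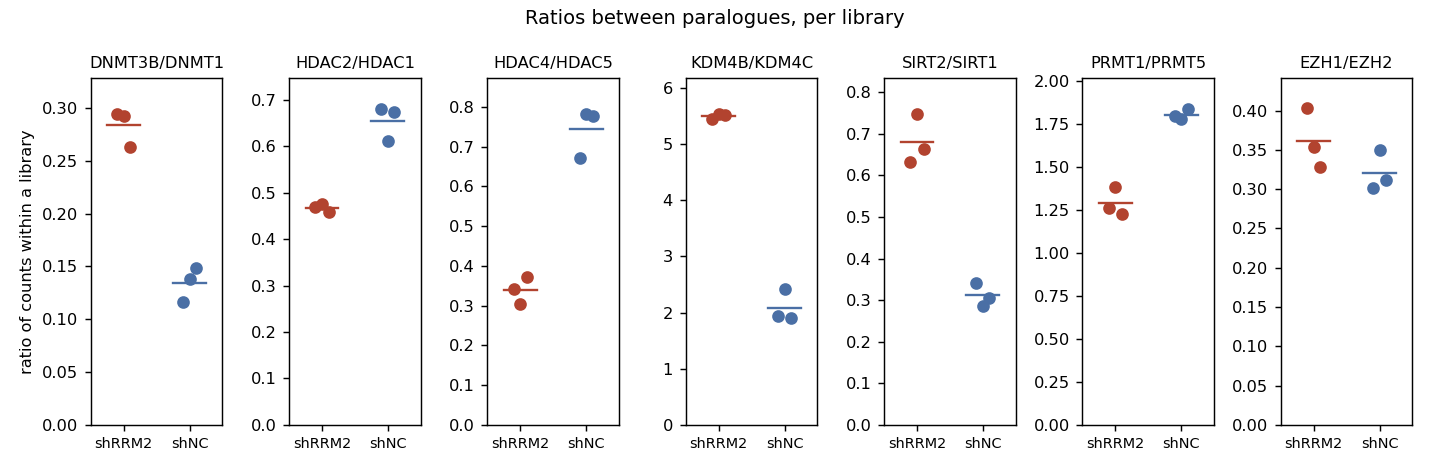
Ratio of counts of 2 related genes within each library (points) with group means (lines), shRRM2 left of shNC, each axis starting at 0. The groups are apart in 6 of the 7 pairs and overlap for EZH1/EZH2.

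Levels between genes can be set side by side only per length. As CPM per kilobase of annotated exons (the union over transcripts in GENCODE release 29, which understates genes with a long minor isoform), HDAC1 stood at 134 in shRRM2 and 120 in shNC, KDM1A at 116 in shRRM2 and 123 in shNC, and PRMT1 at 80.5 in shRRM2 and 119 in shNC. On this scale DNMT1 stood at 39.5 in shRRM2 and 45.8 in shNC, DNMT3B at 13.2 in shRRM2 and 7.25 in shNC, and DNMT3A at 1.07 in shRRM2 and 1.19 in shNC, so that this order held in both groups. EZH2 stood above EZH1 in both groups, at 21.8 against 5.18 in shRRM2 and 27.2 against 5.73 in shNC. Among the KDM4 enzymes KDM4A led with 15.6 in shRRM2 and 12.2 in shNC. Its place is uncertain, as 55.2% of its exon bases also lie in exons of other genes. KDM4B had 9.26 in shRRM2 and 6.16 in shNC, and KDM4C 1.73 in shRRM2 and 3.05 in shNC.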

How the data were processed

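RNA was measured by sequencing in 6 PANC-1 libraries, 3 shRRM2 and 3 shNC. The authors deposited whole-number counts of reads for each NCBI Gene ID. The submitters' processing notes name hg38, featureCounts and fastp 0.23.4. The sources used here give no aligner, annotation, strand setting or treatment of multi-mapping reads, so reads of overlapping or near-identical genes may have been split or dropped. The columns say si where the labels say sh, and each was matched by gene name and number. Symbols were matched by Gene ID to RefSeq (GRCh38.p14) for 40120 of 42902 IDs, and unmatched IDs (1.25% of counts) stayed in the fit.

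Counts were filtered with filterByExpr, scaled with TMM and tested in edgeR 4.0.16 (R 4.3.3; quasi-likelihood, robust, group alone, two-sided, Benjamini-Hochberg over 15866 genes, threshold 0.05). SE is the size of the log2 fold change over the square root of F. Some single-gene values are not reported here. The test was also run on 5 draws of simulated counts with 200 changed genes each. Far more genes were called in the data, so no conclusion is drawn from these draws. Alternatives were RLE factors, unscaled library sizes, no filter, 1 CPM in 3 libraries, DESeq2 1.42.0, limma-voom (limma 3.58.1), a replicate block, a threshold of 0.01 and leaving out each library. The members and lists were chosen with earlier results of these data known. Members with a called change of at least 0.5 are given per library by rule, as are DNMT1, TET3, EZH2, KMT2E, KMT5C, HDAC1, HDAC2, HDAC5 and SIRT1, chosen after their values were seen, and the others by summary values, and of each companion list at most 4 genes are named, taken from the largest called changes, with SETD7, CBX5 and WDR77 added after their values were seen because a count was small.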

Additional observations from a re-analysis of the deposited data

How the results depend on the processing

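The counts of members called kept within 1.5 times of 16 higher and 26 lower under all 14 alternatives: 16 to 18 were higher and 20 to 26 lower. Leaving out a library gave 16 to 17 higher and 21 to 26 lower, and over all genes 3754 to 4031 higher and 3736 to 3944 lower. Of the 42 called members, 32 were called in the same direction in every alternative, all 11 with a change of at least 0.5 among them. The other 10, with changes of at most 0.31, lost the call in at least 1 alternative, and 7 members not called were called in at least 1. No called member changed sign. At an adjusted p of 0.01, 36 members remained, without DOT1L, HDAC8, KDM1A, KMT2C, PRMT6 and SIRT5. Same-numbered libraries did not deviate together (correlations of -0.01, -0.00 and -0.02 for numbers 1 to 3), so the numbers pair nothing in the data. With the replicate block 16 members were higher and 26 lower, 42 of them shared with the fit without it. Depth limits KDM4D, SIRT4, HDAC9 and HDAC11, whose intervals are wide.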

Other observations

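UHRF1 and KDM4B are neighbours on chromosome 19 (GRCh38, 4903080 to 4962154 and 4969113 to 5153598), with 6958 bases between the annotated end of UHRF1 and the start of KDM4B, and they moved in opposite directions, UHRF1 at -0.59 and KDM4B at 0.59 on the log2 scale. This pair was noticed after the values were seen.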
